A study of Danio rerio with 4 samples.

Results

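Microtubule genes were read out in livers of fasting zebrafish larvae after lipofermata, a small-molecule inhibitor of the fatty acid transporter encoded by slc27a2a. The genes were the rows of the count table whose names mark them as alpha-, beta-, gamma-, delta- or epsilon-tubulins (tuba, tubb, tubg, tubd, tube), gamma-tubulin complex proteins (tubgcp), stathmins (stmn), tubulin-folding cofactors (tbca to tbce) or EB proteins (mapre). This rule picked 42 of the 32058 rows, and no measured value entered it. Any such gene listed under another name was not picked, so class sums and shares cover the picked rows only. Larvae of the AB strain received 5 µM lipofermata or its solvent DMSO for 48 h from 4 to 6 dpf, with no food added in either group. Each group had 2 libraries, each from the pooled livers of 30 larvae. The sources used here do not say whether the pools came from separate clutches, so the spread between them may be technical. The libraries held 17326660 and 16104812 counts upon lipofermata, and 19368695 and 14997821 with DMSO. A row for an EGFP reporter had counts in all 4 libraries, although the strain label names AB alone. The paper used wild-type and transgenic fish of this strain, some with an EGFP reporter, and does not name the line behind these libraries.

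Microtubules are hollow polymers of alpha- and beta-tubulin dimers, which the folding cofactors assemble. Gamma-tubulin and its complex proteins seed new microtubules, EB proteins bind the growing plus ends and recruit other factors there, and stathmins hold free dimers and favor shrinkage. Vertebrates carry several genes of each kind, used in different proportions by different cell types, and in animal cells an excess of free dimers is known to speed the decay of tubulin mRNAs. In hepatocytes microtubules carry secretory vesicles and lipid droplets, and in dividing cells they build the spindle.

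Levels are given as CPM (counts scaled to library size with factors from TMM, the trimmed mean of M-values), and differences as log2 fold changes of lipofermata over DMSO. Called genes had an adjusted p under 0.1 in the quasi-likelihood test of edgeR, with adjustment over all 14925 genes tested. With 2 pools a group, an exact permutation test of a single value cannot give a p below 0.333, so each p rests on a spread shared across genes. Of the 42 genes, 38 had counts and 29 were tested; the other 13 had too few counts. Lipofermata changed 14 of the 29, against a share of 33.5% among all genes tested. It raised 9 of the 29 (31.0%), against 16.6% of all genes tested, and lowered 5 (17.2%), against 16.9% of all genes. By at least 2-fold, 4 rose (13.8%, against 6.69% of all genes) and 3 fell (10.3%, against 8.62%). The groups did not overlap for 10 genes that were higher upon lipofermata (34.5%, against 32.2% of all genes) and 8 that were lower (27.6%, against 32.9%). The median log2 fold change of the 29 genes was 0.16, and that of all genes tested was -0.03.

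The genes that rose were stmn1a, tubb6, tuba1b, both genes for EB1 (mapre1a and mapre1b), gamma-tubulin (tubg1), the complex proteins tubgcp3 and tubgcp4, and the cofactor tbcb. Those that fell were 4 alpha-tubulins (tuba2, tuba7l, tuba8l2, tuba8l3) and stmn4. Of these 14, 5 were called under each of 12 other settings, namely stmn1a, tubb6, tuba1b, mapre1b and tuba8l3. The balance moved with the scaling: with total counts in place of TMM, the median of all genes shifted to 0.36. Among all genes tested, 5092 were then called higher and 1182 lower, against 2479 and 2527 with TMM. Of the tubulin and partner genes, 14 were called higher and 2 lower (87.5% of calls higher, against 64.3% with TMM). DESeq2 called 5 of these genes higher and 3 lower, beside 1772 and 1799 of 15379 genes tested. Without lipofermata replicate 1, fewer were called, both among these genes and among all genes tested, and the median of these genes was 0.03.

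**Figure D1:**
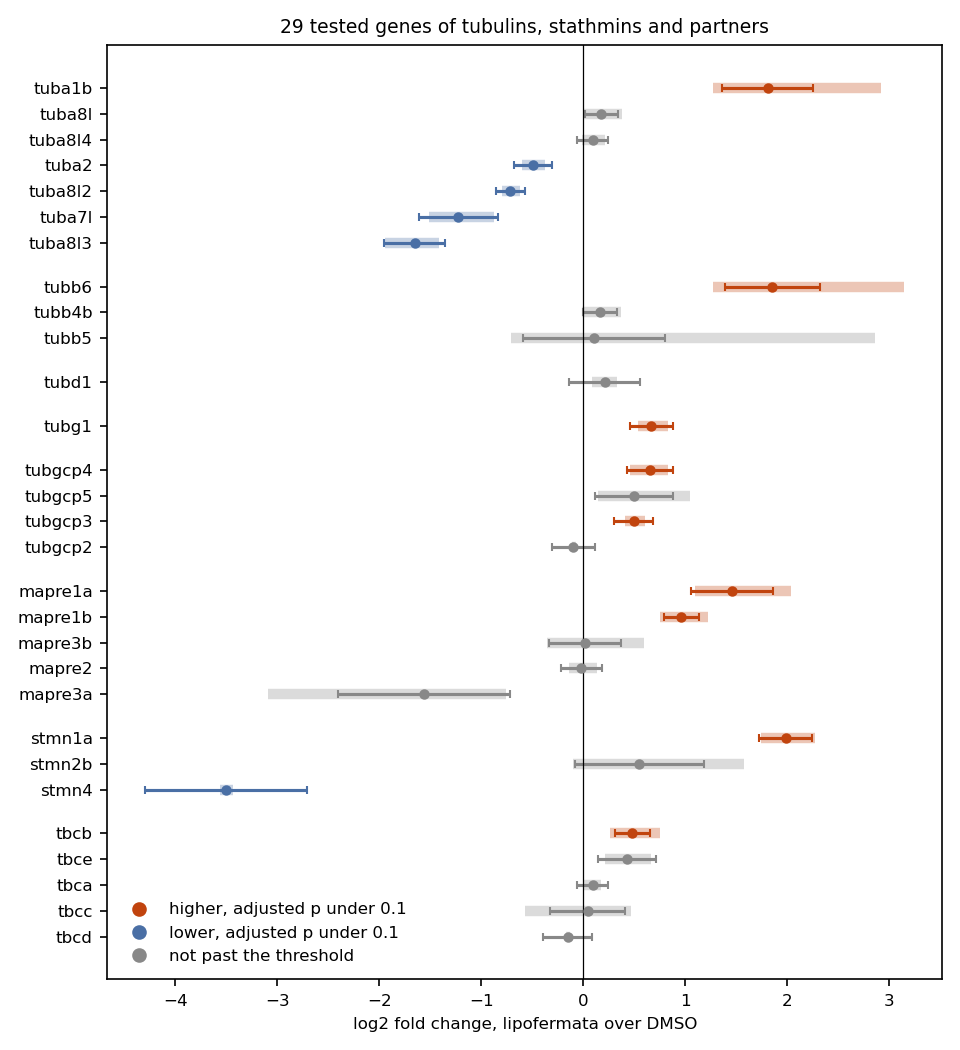
Log2 fold change of lipofermata over DMSO for the 29 tested genes, grouped by class. Points are edgeR estimates, thin bars their standard errors, and pale bars the range when each library is left out in turn. The 9 genes that rose lie right of 0 and the 5 that fell lie left of it. Pale bars of several genes that were not called cross 0, among them tubb5 (-0.71 to 2.86) and tbcc (-0.58 to 0.46).

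Alpha-tubulin counts were divided among the 10 genes picked by name. The balance among the most abundant of them differed between the groups, while the sum of all 10 overlapped. The alpha-tubulin genes summed to 681 and 623 CPM upon lipofermata, and 725 and 651 CPM with DMSO (652 ± 41.5 and 688 ± 52.4 CPM, mean ± SD, n = 2 each). These ranges overlapped. The genes tuba8l, tuba8l2 and tuba8l4 together took 96.4% of alpha-tubulin counts in both lipofermata libraries, and 95.5% and 94.9% in the DMSO libraries. Gene lengths were not used, so a share of counts is not a share of molecules. Alpha-tubulin paralogs are also close in sequence, and how the counting treated reads that fit several genes is not given in the sources used here, so the division among them is uncertain.

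The leading gene, tuba8l (ENSDARG00000042708, listed as tuba5 in the newer gene names), took 58.1% and 56.8% of alpha-tubulin counts upon lipofermata, against 51.4% and 44.7% with DMSO. Its share was 9.45 percentage points higher on average, and the groups did not overlap. The 95% Wilson interval of any of these shares reached at most 1.09 points to either side, which covers counting error only. In level, tuba8l had 396 and 354 CPM upon lipofermata and 373 and 291 CPM with DMSO. That difference did not pass the test (log2 fold change 0.18, standard error 0.17, adjusted p = 0.474, edgeR). It was called higher with total counts (0.55) and without DMSO replicate 1 (0.37).

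The share of tuba8l2 (ENSDARG00000031164) was lower. It took 17.5% and 19.6% of alpha-tubulin counts upon lipofermata, against 25.6% and 32.4% with DMSO. Its level was 119 and 122 CPM upon lipofermata, against 186 and 211 CPM with DMSO. Both lipofermata libraries lay below both DMSO libraries, and tuba8l2 fell 1.64-fold (log2 fold change -0.72, standard error 0.14, adjusted p = 0.00565, edgeR). The call was lost with total counts (-0.32) and without lipofermata replicate 1 (-0.70). Set against tuba8l2 alone, tuba8l made up 76.9% and 74.3% of the pair upon lipofermata, against 66.7% and 57.9% with DMSO.

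The remaining abundant alpha-tubulin, tuba8l4 (ENSDARG00000006260), had 142 and 125 CPM upon lipofermata and 135 and 116 CPM with DMSO. It did not pass the test (log2 fold change 0.09, standard error 0.15, adjusted p = 0.704, edgeR), but was called higher with total counts (0.47). Its share was 20.8% and 20.01% upon lipofermata, against 18.5% and 17.8% with DMSO. In the DMSO libraries tuba8l4 stood below tuba8l2 by counts, at 42.0% and 35.4% of their pair. Upon lipofermata it stood above tuba8l2, at 54.3% and 50.5%. The counts in lipofermata replicate 2 were close, at 2274 for tuba8l4 and 2229 for tuba8l2. A reversed order of the pair thus rests on lipofermata replicate 1.

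**Figure D2:**
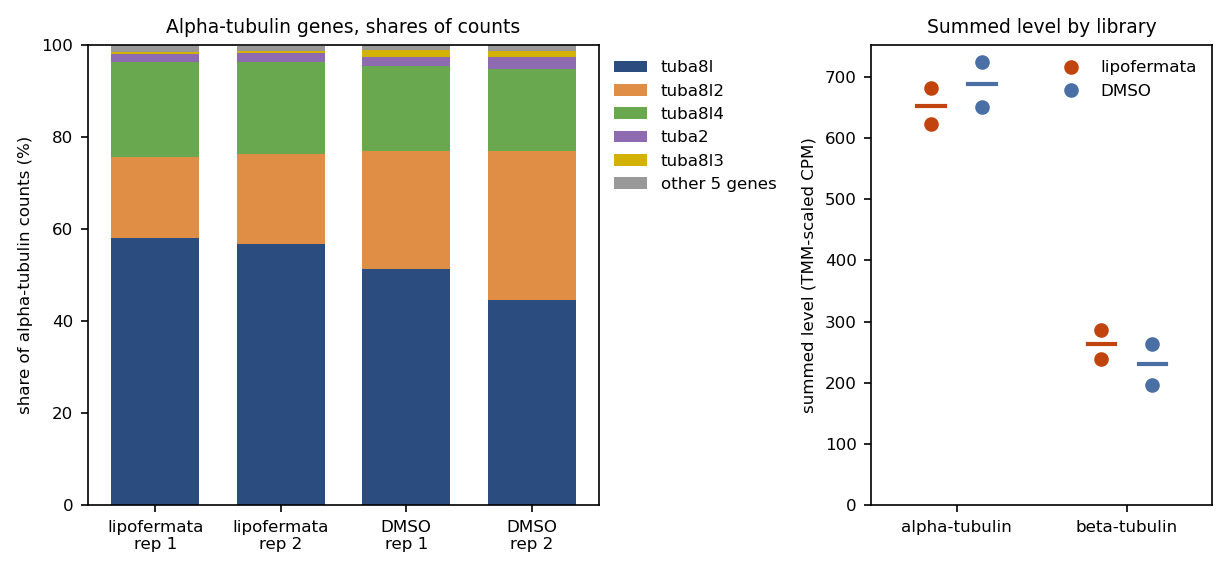
Left, the share of alpha-tubulin counts (%) taken by each gene in each library. Right, the summed level (CPM) of alpha- and beta-tubulin genes, with points for libraries and lines for group means. The tuba8l2 band is narrower in the lipofermata libraries, at 17.5% and 19.6% against 25.6% and 32.4% with DMSO, while the summed levels overlap.

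Among the less abundant alpha-tubulins, 3 fell and 1 rose. Of all 7 tested alpha-tubulins, 57.1% fell and 14.3% rose, against 16.9% and 16.6% of all genes tested. The largest fall was in tuba8l3 (ENSDARG00000070155), with 3.35 and 2.30 CPM upon lipofermata, against 10.2 and 7.59 CPM with DMSO. It fell 3.15-fold (log2 fold change -1.66, standard error 0.30, adjusted p = 0.0035, edgeR) and stayed between -1.95 and -1.41 when each library was left out. For tuba7l (ENSDARG00000104643), the levels were 2.20 and 1.64 CPM upon lipofermata, against 3.55 and 5.55 CPM with DMSO. It fell 2.34-fold (log2 fold change -1.23, standard error 0.39, adjusted p = 0.0409, edgeR), a call lost with DESeq2 (-1.21), total counts (-0.82), without lipofermata replicate 2 (-1.04) and without DMSO replicate 2 (-0.88). The fall in tuba2 (ENSDARG00000045014) was the smallest of the 4, with 10.9 and 12.2 CPM upon lipofermata, against 15.02 and 17.6 CPM with DMSO. Its log2 fold change was -0.49 (standard error 0.18, adjusted p = 0.0769, edgeR), and 6 of the 12 other settings did not call it, among them DESeq2, total counts (-0.10) and every leave-one-out fit except that without DMSO replicate 1.

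The opposite direction was seen in tuba1b (ENSDARG00000045367), the 1 alpha-tubulin that rose. It had 6.90 and 5.42 CPM upon lipofermata, against 2.55 and 0.817 CPM with DMSO. Both lipofermata libraries were above both DMSO libraries, and the DMSO libraries differed from each other by 3.12-fold. The log2 fold change was 1.81 (standard error 0.44, adjusted p = 0.0143, edgeR), 2.91 without DMSO replicate 1 and 1.27 without DMSO replicate 2. Its share of alpha-tubulin counts remained low, at 1.01% and 0.87% upon lipofermata and 0.35% and 0.13% with DMSO.

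In the RefSeq annotation of a newer assembly (GRCz12tu), tuba1c, tuba1a and tuba1b are consecutive coding genes. Only tuba1b of the 3 had enough counts for the test. For tuba1a, which in zebrafish is expressed in neurons, 0 counts were found in both lipofermata libraries, against 9 and 3 in the DMSO libraries. Set against a floor of 3 counts over the whole lipofermata group, the DMSO level was 5.05-fold higher. This takes the 12 DMSO counts as exact, so it is not a firm bound, and no test was run. The counts of tuba1c were 8 and 6 upon lipofermata and 2 and 8 with DMSO, and overlapped. Those of tuba4l, another alpha-tubulin too low for the test, were 10 and 4 upon lipofermata and 10 and 10 with DMSO, or 0.4997 and 0.219 CPM upon lipofermata against 0.554 and 0.817 CPM with DMSO.

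Counts of the beta-tubulin genes picked by name were nearly all from tubb4b (ENSDARG00000002344), a broadly expressed beta-tubulin also found in cilia in mammals. It took 95.4% and 96.4% of beta-tubulin counts upon lipofermata, and 96.5% and 99.3% with DMSO. Its level was 273 and 231 CPM upon lipofermata, and 254 and 196 CPM with DMSO. These overlapped, and tubb4b did not pass the test (log2 fold change 0.16, standard error 0.17, adjusted p = 0.523, edgeR). It was called higher with total counts (0.54) and without DMSO replicate 1 (0.37). Beta-tubulin as a class summed to 286 and 239 CPM upon lipofermata and 263 and 197 CPM with DMSO (263 ± 33.0 and 230 ± 46.8 CPM, mean ± SD, n = 2 each). Alpha-tubulin counts exceeded beta-tubulin counts by 2.38 and 2.60 times upon lipofermata, and by 2.76 and 3.31 times with DMSO.

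The beta-tubulin that rose was tubb6 (ENSDARG00000104801), with 8.64 and 5.81 CPM upon lipofermata, against 2.99 and 0.817 CPM with DMSO. Its log2 fold change was 1.85 (standard error 0.47, adjusted p = 0.0164, edgeR), which is 3.61-fold. It was 3.14 without DMSO replicate 1 and 1.27 without DMSO replicate 2, and remained called in both. Its share of beta-tubulin counts was 3.02% and 2.43% upon lipofermata, against 1.14% and 0.41% with DMSO. As with tuba1b, the lowest level was in DMSO replicate 2.

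For tubb5, DMSO replicate 1 decided the result. It had 4.40 and 2.74 CPM upon lipofermata, and 5.88 and 0.490 CPM with DMSO, so the DMSO libraries differed from each other by 11.99-fold. The log2 fold change was 0.10 (standard error 0.70, adjusted p = 0.933, edgeR), 2.86 and called without DMSO replicate 1, and -0.71 without DMSO replicate 2. The remaining beta-tubulins were nearly silent. Counts of tubb1 were 0 and 2 upon lipofermata and 4 and 0 with DMSO, and those of tubb2 were 2 and 0 in each group. No library had a count for tubb2b, a limit of 0.15 and 0.164 CPM upon lipofermata and 0.166 and 0.245 CPM with DMSO (3 counts a library, counting error only).

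Gamma-tubulin and part of its complex rose. The gene tubg1 (ENSDARG00000015610) had 14.1 and 11.8 CPM upon lipofermata, against 8.93 and 7.35 CPM with DMSO. It rose 1.59-fold (log2 fold change 0.66, standard error 0.21, adjusted p = 0.0431, edgeR). The call was lost with DESeq2 (0.69) and without lipofermata replicate 1 (0.53).

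Of 4 complex proteins, 2 rose (50%, against 16.6% of all genes tested). Counts of all 4 summed to 39.6 and 35.8 CPM upon lipofermata, against 30.8 and 27.2 CPM with DMSO. The level of tubgcp4 (ENSDARG00000005374), a protein of the full gamma-tubulin ring, was 12.6 and 9.81 CPM upon lipofermata, against 7.48 and 6.78 CPM with DMSO (log2 fold change 0.65, standard error 0.23, adjusted p = 0.0579, edgeR). It was not called with DESeq2 (0.67) or without lipofermata replicate 1 (0.46). For tubgcp3 (ENSDARG00000029133), which forms the smaller gamma-tubulin complex together with tubgcp2, the levels were 13.7 and 13.9 CPM upon lipofermata and 10.4 and 9.15 CPM with DMSO. Its log2 fold change was 0.49 (standard error 0.19, adjusted p = 0.084, edgeR), and 5 of 12 other settings did not call it: DESeq2, upper-quartile scaling and the fits without lipofermata replicate 1, lipofermata replicate 2 or DMSO replicate 2.

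Its partner tubgcp2 did not pass the test (log2 fold change -0.10, standard error 0.21, adjusted p = 0.77, edgeR, and 0.29 with total counts). Its levels were 8.79 and 8.55 CPM upon lipofermata and 9.26 and 9.31 CPM with DMSO, which do not overlap. For tubgcp5, another protein of the full ring, they were 4.45 and 3.62 CPM upon lipofermata and 3.66 and 1.96 CPM with DMSO (log2 fold change 0.50, adjusted p = 0.369, edgeR, called without DMSO replicate 1 at 1.05). Within the counts of the 4 genes, tubgcp2 took 22.2% and 23.9% upon lipofermata, against 30.0% and 34.2% with DMSO. The share of tubgcp4 was 31.9% and 27.4% upon lipofermata, against 24.3% and 24.9% with DMSO.

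Delta-tubulin (tubd1), which in other animals acts in centrioles and basal bodies, had 3.65 and 3.07 CPM upon lipofermata and 3.10 and 2.69 CPM with DMSO, and did not pass the test (log2 fold change 0.21, adjusted p = 0.705, edgeR). Epsilon-tubulin is listed under 2 identifiers named tube1, both with 0 counts in all 4 libraries.

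Among the stathmins, stmn1a took the largest share of counts in each library, and it had the largest rise of all 29 tested genes. This gene (ENSDARG00000004169) encodes stathmin 1, which in mammals is abundant in proliferating cells. It had 18.2 and 13.1 CPM upon lipofermata, against 4.55 and 3.27 CPM with DMSO. The lowest lipofermata library was well above the highest DMSO library, and stmn1a rose 3.96-fold (log2 fold change 1.98, standard error 0.26, adjusted p = 0.000593, edgeR). It ranged from 1.74 to 2.27 when each library was left out. Stathmin counts as a whole were 20.5 and 14.9 CPM upon lipofermata, against 6.60 and 7.02 CPM with DMSO (17.7 ± 3.95 and 6.81 ± 0.301 CPM, mean ± SD, n = 2 each).

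The largest fall was in another stathmin, stmn4 (ENSDARG00000030106), which in mammals is expressed in neurons. It had 2 counts in each lipofermata library, against 22 and 16 in the DMSO libraries, or 0.0999 and 0.110 CPM against 1.22 and 1.31 CPM. The ratio of its scaled counts was 0.0833 with a 95% counting interval from 0.0216 to 0.231. Its fitted log2 fold change was -3.50 (standard error 0.79, adjusted p = 0.00993, edgeR). The call was lost without lipofermata replicate 1 (-3.43), and the gene had too few counts for the test once read pairs were taken as 1 count.

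The division of stathmin counts differed between the groups, although stmn1a led in every library. Upon lipofermata stmn1a took 88.8% and 88.2% of stathmin counts, against 68.9% and 46.5% with DMSO. The share of stmn4 was 0.49% and 0.74% upon lipofermata, against 18.5% and 18.6% with DMSO. That of stmn2b was 9.76% and 8.82% upon lipofermata, and 8.40% and 25.6% with DMSO. Between 86 and 410 stathmin counts lay behind each share, and the Wilson interval of the stmn1a share reached up to 10.3 points to a side.

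The neuronal relative stmn2b did not separate the groups, with 40 and 24 counts upon lipofermata and 10 and 22 with DMSO (log2 fold change 0.55, standard error 0.63, adjusted p = 0.569, edgeR). The other stathmins were at or near 0. The gene stmn1b had 2 counts in each library, stmn2a had 0 and 2 upon lipofermata and 0 and 6 with DMSO, and stmn3 had 3 counts in DMSO replicate 1 alone. The stmn4-like gene stmn4l had 2 counts in each lipofermata library and 0 in each DMSO library. This is a ratio of 1.06 to the floor of 3 counts, with the lipofermata counts taken as exact. No library had a count for stmnd1.

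**Figure D3:**
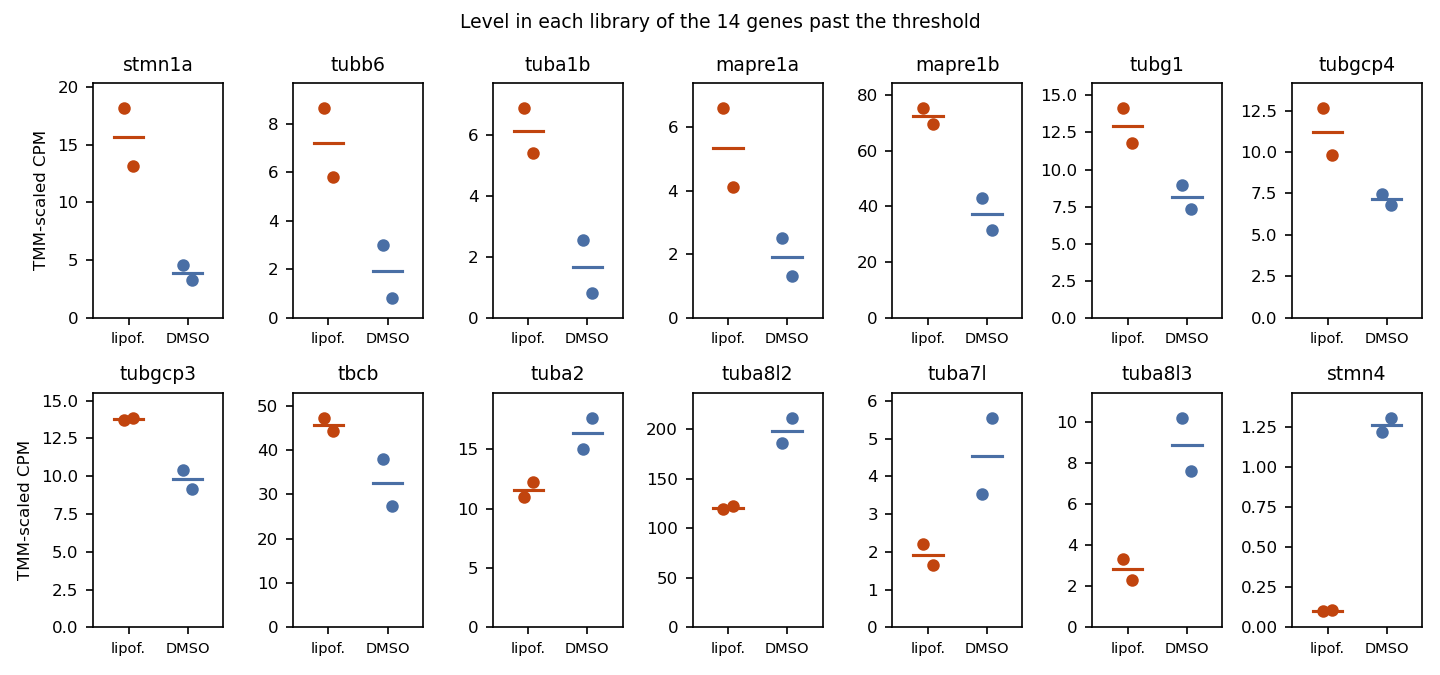
Level (CPM) of the 14 called genes in each library, with lines for group means and lipofermata left of DMSO in each panel. Axes start at 0 and differ between panels. The genes were picked by their calls on these same values, so the separation of the groups in all 14 panels is no added support. Among all genes tested, the groups did not overlap for 32.2% that were higher and 32.9% that were lower. For stmn4 the levels are 0.0999 and 0.110 CPM upon lipofermata, against 1.22 and 1.31 CPM with DMSO.

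Of 5 EB genes, 2 rose (40%, against 16.6% of all genes tested). Both encode EB1, the main plus-end protein of dividing and interphase cells. All 5 summed to 98.1 and 88.7 CPM upon lipofermata, against 64.5 and 46.1 CPM with DMSO. For mapre1b (ENSDARG00000002659) the levels were 75.4 and 69.7 CPM upon lipofermata, against 43.0 and 31.4 CPM with DMSO. It rose 1.94-fold (log2 fold change 0.96, standard error 0.17, adjusted p = 0.00299, edgeR) and ranged from 0.75 to 1.22 when each library was left out. The paralog mapre1a (ENSDARG00000042927) had 6.60 and 4.11 CPM upon lipofermata, against 2.49 and 1.31 CPM with DMSO. Its log2 fold change was 1.46 (standard error 0.40, adjusted p = 0.0246, edgeR), and the call was lost without lipofermata replicate 1 (1.09). Of the counts of this pair, mapre1a took 8.05% and 5.57% upon lipofermata, against 5.48% and 4.00% with DMSO.

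The EB2 gene mapre2 was level, with 10.8 and 10.6 CPM upon lipofermata and 11.8 and 9.80 CPM with DMSO (log2 fold change -0.02, standard error 0.20, adjusted p = 0.953, edgeR, and 0.36 with total counts). Its share of EB counts was therefore lower upon lipofermata, at 11.004% and 11.9%, against 18.3% and 21.3% with DMSO. The share of mapre1b was 76.8% and 78.5% upon lipofermata, against 66.7% and 68.1% with DMSO. Neither EB3 gene, of the kind most abundant in brain and muscle of mammals, passed the test. Counts of mapre3a were 11 and 2 upon lipofermata and 25 and 7 with DMSO (log2 fold change -1.56, standard error 0.84, adjusted p = 0.202, edgeR). Leaving out DMSO replicate 1 gave -0.75, lipofermata replicate 2 gave -0.85 and lipofermata replicate 1 gave -3.09, and mapre3a was called in none of these fits. The levels of mapre3b were 4.80 and 4.27 CPM upon lipofermata and 5.82 and 3.02 CPM with DMSO (log2 fold change 0.02, adjusted p = 0.982, edgeR).

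The folding cofactors summed to 92.9 and 84.5 CPM upon lipofermata, against 75.8 and 70.5 CPM with DMSO. Of the 5 cofactors, only tbcb (ENSDARG00000068404), which receives alpha-tubulin from the chaperonin, was called (20% higher, against 16.6% of all genes tested). It had 47.2 and 44.2 CPM upon lipofermata against 38.0 and 27.3 CPM with DMSO. It rose 1.39-fold (log2 fold change 0.48, standard error 0.17, adjusted p = 0.0659, edgeR), and was not called with DESeq2 or without lipofermata replicate 1, lipofermata replicate 2 or DMSO replicate 2, the last at 0.27. Without DMSO replicate 1 it was 0.75. The beta-tubulin cofactor tbca had 26.7 and 23.9 CPM upon lipofermata and 22.7 and 24.8 CPM with DMSO (log2 fold change 0.09, adjusted p = 0.705, edgeR, and 0.48 and called with total counts).

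The later-acting cofactors tbcc, tbcd and tbce had log2 fold changes of 0.04, -0.15 and 0.43 (adjusted p = 0.95, 0.685 and 0.303, edgeR). The level of tbce was 5.80 and 6.85 CPM upon lipofermata and 3.99 and 5.47 CPM with DMSO, which do not overlap, and it was called with total counts (0.82). For tbcc the libraries overlapped widely, at 6.996 and 3.40 CPM upon lipofermata and 4.32 and 5.88 CPM with DMSO. Like tbce, tbcd did not overlap between the groups, at 6.25 and 6.14 CPM upon lipofermata and 6.76 and 7.02 CPM with DMSO. Its log2 fold change was 0.23 with total counts. Such separation was common, at 32.2% of all genes tested for higher levels and 32.9% for lower levels.

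**Figure D4:**
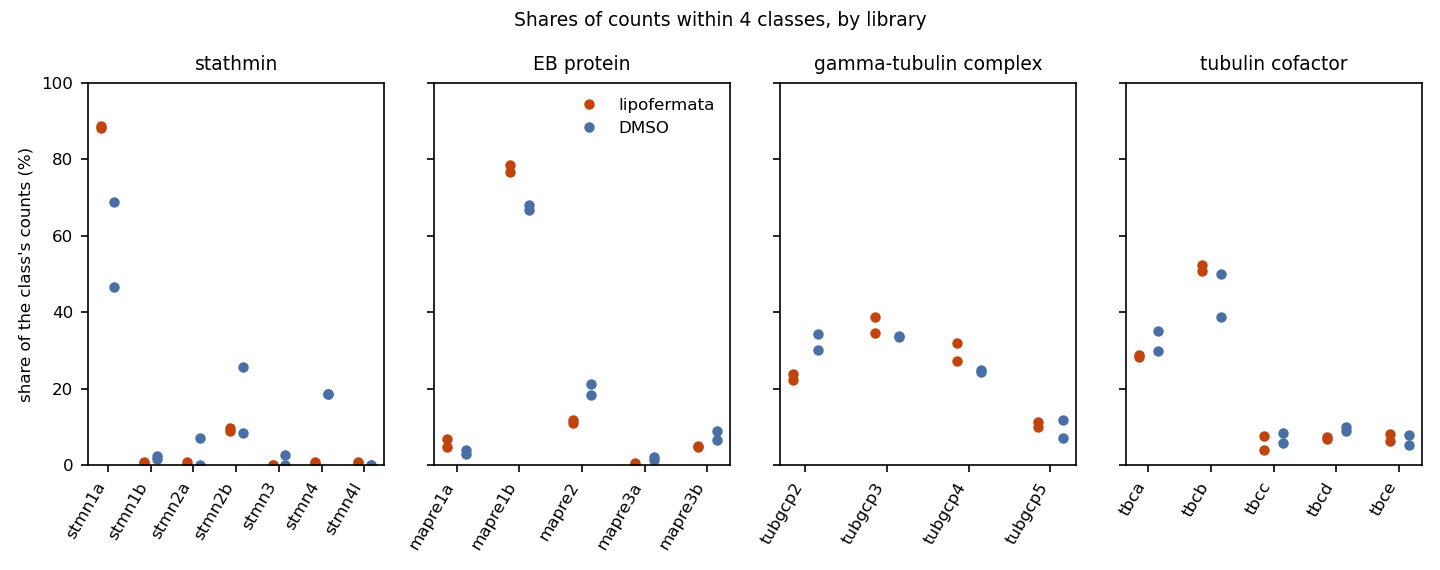
Share of counts (%) of each gene within the stathmins, EB proteins, gamma-tubulin complex proteins and folding cofactors, 1 point a library, lipofermata left of DMSO. The stathmins differ most, with stmn1a at 88.8% and 88.2% upon lipofermata against 68.9% and 46.5% with DMSO.

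Other microtubule genes were counted in lists chosen with earlier results of these data known. Of all genes tested, 16.6% were called higher, 16.9% lower and 33.5% either way. Of 12 tested nucleation partners and augmin subunits, 7 rose and none fell, and the median of the list was 1.43 on the log2 scale. They included tpx2 (3.004, adjusted p = 0.000143, edgeR), a spindle assembly factor that promotes microtubule nucleation near chromosomes, the mitotic kinase aurka (3.21), and the augmin subunits haus3 (2.13) and haus6 (1.43). Without lipofermata replicate 1, the list's median was 1.22, and fewer genes were called both in this list and among all genes tested. Of 11 microtubule-associated proteins, 4 rose and 3 fell. Those that rose included the spindle proteins prc1a (2.96), prc1b (2.63) and numa1 (1.20), as well as mapta (1.45), a gene for tau. Those that fell were dclk2a (-2.22), a doublecortin-like kinase, map7d1b (-1.15) and map7d1a (-0.61). The list's median, 0.22, turned negative when lipofermata replicate 2 (-0.06), DMSO replicate 1 (-0.31) or DMSO replicate 2 (-0.40) was left out, and with all counts halved (-0.14).

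Plus-end partners were called about as often as all genes tested (33.5%). Of 12 tested, tacc3 (2.27), a spindle protein, and clip2 (1.14) rose, while apc (-0.76), also a part of the beta-catenin destruction complex, and slain2 (-0.63) fell, and with total counts 6 were called higher and none lower. Enzymes that modify tubulin tails and lumens showed no calls among 12 tested (median 0.05, 0 at an unadjusted p under 0.05 in edgeR). For this list DESeq2 called 0, limma voom called 1 higher, and edgeR without a filter called 1 higher of 17 tested. Calls also appeared when either DMSO replicate was left out. The 6 tested severing enzymes showed no calls either (median 0.09, 0 at an unadjusted p under 0.05 in edgeR). DESeq2 and limma voom called 0 of the severing enzymes. With total counts, which called 5092 of 14925 genes higher, 2 of each list were called higher. Folding partners were also called near the share of all genes tested (33.5%), with 4 called of 10 tested. The prefoldin subunits pfdn2 (0.43), pfdn4 (0.47) and pfdn6 (0.64) rose and tbcela (-0.45), a relative of the cofactor tbce, fell. The subunits pfdn1 (0.18) and pfdn5 (0.03) and the partner vbp1 (-0.41) were not called. None of these folding partners was called by DESeq2, which had 1 at an unadjusted p under 0.05, or without either lipofermata replicate.

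Markers of some cell types also differed between the groups, while others were split or mostly not called. In bulk RNA, fewer cells of a type cannot be told apart from less RNA per cell. The list of dividing-cell genes was chosen with earlier results of these data known. The paper reports some of these genes as raised by lipofermata in the same comparison, so their count is no independent support. Against 16.6% of all genes tested, all 10 genes of dividing cells rose (median log2 fold change 2.69). They summed to 249 and 209 CPM upon lipofermata, against 64.8 and 41.0 CPM with DMSO, and were called in all 4 leave-one-out fits. Within each group their sum was highest in replicate 1, as were stmn1a, tuba1b, tubb6 and mapre1a. The same order was seen for tuba8l3, which fell, and for tuba8l and tubb4b, which did not pass the test. It was not seen for tubgcp3, which rose, with 13.7 and 13.9 CPM in lipofermata replicates 1 and 2. With 2 libraries a group, a shared order is no test of a link. The part of dividing cells in the rise of stmn1a, tuba1b, tubb6 and mapre1a was not tested.

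Beside the fall of stmn4, 3 of 6 tested neuron markers fell and none rose, against 16.9% and 16.6% of all genes tested. Of the other genes described above as neuronal, stmn2b did not pass the test (log2 fold change 0.55, adjusted p = 0.569, edgeR). The other, tuba1a, was too low for the test. The median of the tested markers was -2.28, and -0.74 without lipofermata replicate 1. Those that fell were elavl4 (-4.24), rbfox3a (-3.17) and snap25b (-3.12). The 3 tested markers that were not called ranged from -1.43 (snap25a) to 0.23 (sypa). All 14 listed neuron markers had counts in at least 1 library, and summed to 3.60 and 6.41 CPM upon lipofermata, against 12.4 and 13.1 CPM with DMSO. Markers too low for the test went both ways. Counts of elavl3 were 1 and 8 upon lipofermata and 2 and 15 with DMSO. Those of vamp2 were 2 and 6 upon lipofermata and 0 and 0 with DMSO. The part of neuronal RNA in the falls was not tested.

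The counts called in the next lists stand beside shares of 16.6% higher and 16.9% lower among all genes tested. Endothelial markers fell for 9 of 10 genes (median -1.81), with sums of 218 and 205 CPM upon lipofermata, against 802 and 717 CPM with DMSO. Hepatocyte markers were by far the most abundant, at 48059 and 50851 CPM upon lipofermata, against 71144 and 84104 CPM with DMSO, and 7 of 12 fell. Biliary markers were split, with 2 of 6 higher, among them epcam (1.20), and 2 lower. Pancreas and gut markers varied within both groups, at 5861 and 2718 CPM upon lipofermata and 2158 and 5042 CPM with DMSO, and 1 of 8 tested rose. Of 5 thrombocyte markers, 2 were tested and itga2b fell (-2.90). Of 8 ciliated cell markers in the table, 4 were at 0 in every library (foxj1a, rsph9, dnaaf1 and spag6) and 1 was tested, with no call. The part of these cell types in the shifts among tubulin genes was not tested.

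**Figure D5:**
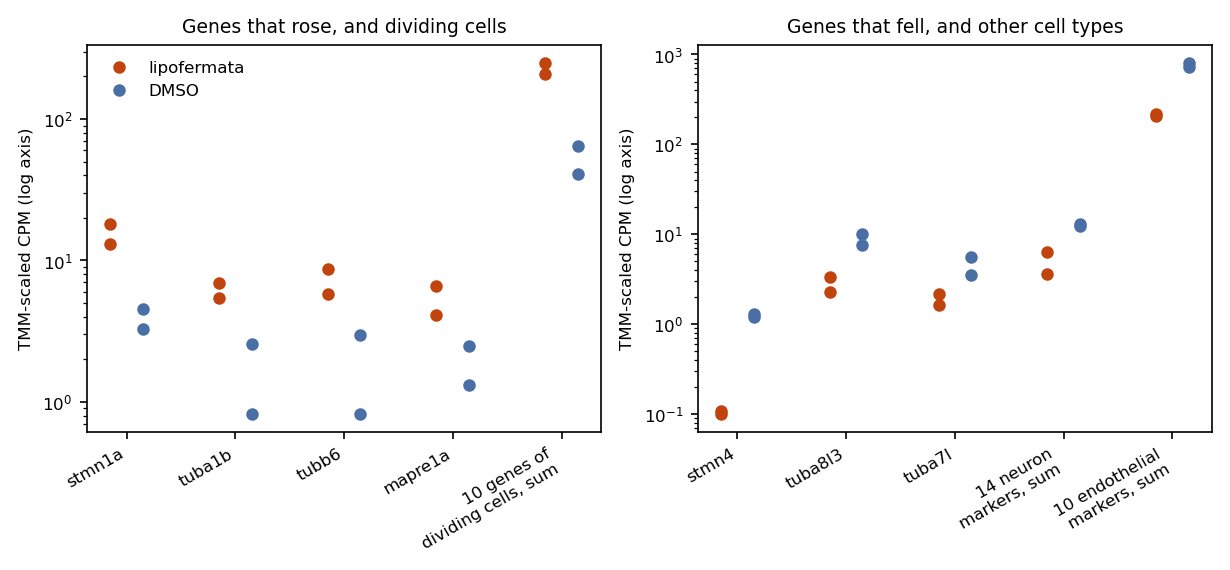
Levels (CPM, log axis) in each library, lipofermata left of DMSO. Left, 4 genes that rose beside the sum of 10 genes of dividing cells. Right, 3 genes that fell beside the sums of 14 neuron and 10 endothelial markers. The dividing-cell sum is 249 and 209 CPM upon lipofermata against 64.8 and 41.0 CPM with DMSO, and the neuron sum 3.60 and 6.41 CPM against 12.4 and 13.1 CPM.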

How the data were processed

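Polyadenylated RNA from larval zebrafish livers was sequenced as paired-end reads from stranded libraries (2 lipofermata, 2 DMSO). The deposited values are raw counts per gene, not normalized. In the submitters' processing notes, the authors name HISAT2 for alignment, GRCz11 as the genome and featureCounts for the counts. Not given in the sources used here are the versions, annotation release, strand setting and treatment of reads that fit several genes. Of values from 1 to 10, 77.7% to 78.2% were even in each library, as when both mates are counted, so counting intervals and floors are too narrow. Between replicates, the chi-square per degree of freedom was 13.9 for lipofermata and 23.9 for DMSO.

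Counts were analyzed in R 4.3.3 with edgeR 4.0.16: filterByExpr by group (minimum count 10; 14925 of 22295 genes with counts kept), TMM factors (1.16 and 1.13 for lipofermata, 0.932 and 0.817 for DMSO), and the quasi-likelihood F test on treatment alone. P-values were Benjamini-Hochberg adjusted over all genes, at the study's threshold of 0.1. Standard errors are the log2 fold change divided by the square root of F. Shares are counts of a gene over those of its class. Alternatives used DESeq2 1.42.0, limma 3.58.1, other scalings and filters, a threshold of 0.05, a replicate block, leaving out each library, and counts halved and rounded up, the last chosen after seeing the data. Replicate numbers were not used as pairs, since the sources used here do not say that they pair samples. In a separate check, replicate differences correlated by 0.05 between groups across genes. Figures used Python 3.11.15 with matplotlib 3.10.9.

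Any gene picked by the rule may be named. Values by library are given for the leading gene of each class, up to 12 called genes a direction and genes of 1 class moving in opposite directions, and further genes were named after their values were seen. Of each partner or marker list, up to 4 genes a direction by smallest p are named. Named after their values were seen were pfdn1, pfdn5, vbp1, elavl3, vamp2 and the markers at 0. Genes and lists were chosen with earlier results of these data known. All 42 identifiers matched the gene name table, and 41 symbols matched RefSeq (GRCz12tu), used for names and neighbors alone. A symbol on several rows stands, in a list, for the row with the most counts. Columns of other samples numbered 0. Scripts were tested on simulated data.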

Additional observations from a re-analysis of the deposited data

How the results depend on the processing

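The depth and the 2 pools a group limit what can be called, and genes under about 1 CPM rest on few counts. DESeq2 called 5 genes higher and 3 lower in place of 9 and 5, and total counts called 14 higher and 2 lower. Among all genes tested, DESeq2 called 1772 higher and 1799 lower and total counts 5092 and 1182, in place of 2479 and 2527. Leaving out each library gave 4 to 13 higher (fewest without lipofermata replicate 1, most without DMSO replicate 1) and 2 to 5 lower (fewest without lipofermata replicate 1). The replicate block gave 9 higher and 5 lower and changed no call, while same-numbered libraries did not deviate together (correlation 0.05). Upper-quartile scaling gave 8 and 5, no filter 9 and 4, a filter of 0.5 CPM in 2 libraries 9 and 5, limma voom 9 and 5, a threshold of 0.05 gave 6 and 4, and halved counts, chosen after seeing the data, 9 and 4. At the threshold of 0.1, the replicate block and these other settings called 2266 to 2756 of all genes tested higher and 2490 to 2758 lower. No called gene changed sign. Genes that had not passed the test changed sign as follows, on the log2 scale. With total counts, mapre2 was 0.36, tubgcp2 0.29 and tbcd 0.23. With DESeq2, mapre2 was 0.00195. With upper-quartile factors, mapre3b was -0.027 and tbcc -0.00397, with halved counts mapre3b was -0.036, and with the replicate block tbcc was -0.0121. Leaving out each library, tuba8l4 ranged from -0.0146 to 0.21, tubb4b from -0.0124 to 0.37, tubb5 from -0.71 to 2.86, mapre2 from -0.14 to 0.13, mapre3b from -0.36 to 0.59, stmn2b from -0.10 to 1.57 and tbcc from -0.58 to 0.46. The cause was not tested. Leaving out each library, the share of tuba8l differed by 6.11 to 12.8 points (lipofermata minus DMSO), tubb4b by -3.44 to -0.61 and mapre1b by 9.45 to 11.1. The ranges were 0.955 to 4.96 for tubgcp3, 19.6 to 42.0 for stmn1a and 1.42 to 12.9 for tbcb. Counting each name under its most abundant identifier could not move these shares, since the only repeated name, tube1, had 0 counts on each row. Shares per coding length were not run, since lengths were not used here.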
